A study of Homo sapiens with 73 samples.

Results

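The p53 feedback loop and p21 were followed through 5 genes, MDM2, MDM4, CDKN1A, PPM1D and CCNG1, taken by their symbols from a table of 36233 genes in 73 libraries. All 5 lay above the level filter (mean of at least 10) that 14565 genes passed. The cells are CHLA-9, an established Ewing sarcoma line with the EWSR1-FLI1 fusion, grown in culture as 10 lineages split from 1 untreated parental line. Lineages R1 to R7 were treated in turn with VDC and EC. VDC combines vincristine, doxorubicin and cyclophosphamide, and EC combines cyclophosphamide with etoposide. An exposure took 5 days, at a dose of 70% effect. Lineages R8 to R10 received DMSO, the drug solvent, under the same time point names. RNA was taken after drug-free regrowth at the end of a time point, so no library shows cells under drug. Odd time points follow VDC and even ones EC, to time point 10 (5 cycles). There were 49 treated libraries, 23 DMSO libraries and 1 parental library. Treated lineages have no library at time point 2 and DMSO lineages none at time point 3, and time point 7 has 1 DMSO library, of R8. All lineages descend from 1 cell line.

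p53 is a transcription factor that DNA damage stabilizes. It switches on CDKN1A, whose product p21 inhibits cyclin-dependent kinases and stops the cell cycle in G1. It also switches on its own inhibitors: MDM2 is the ubiquitin ligase that marks p53 for degradation, PPM1D encodes the phosphatase WIP1, which removes damage-induced phosphates from p53 and its kinases, and CCNG1 encodes cyclin G1, which recruits a phosphatase that acts on MDM2. MDM4 (MDMX) is the partner of MDM2 that binds and blocks the activation domain of p53. Doxorubicin and etoposide act on topoisomerase II and break DNA, and cyclophosphamide metabolites crosslink it, so both regimens belong to the classical activators of this loop.

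The table holds quantile-normalized counts, a scale on which each library has almost the same distribution of values and its sequencing depth is unknown. A value compares 1 gene between libraries, not 2 genes with each other, because no gene length enters it. Of 10 Ewing sarcoma markers, 9 lay above the filter, and their summed value was 35680 to 87091 in treated and 64548 to 87348 in DMSO libraries. Much of this sum was CCND1, with medians of 41935 in treated and 44969 in DMSO libraries, beside 70569 and 73257 for the sum. CD99, the surface marker used in diagnosis, was near 0 in every library, at most 1.66 in treated and 2.31 in DMSO libraries. The epithelial cell adhesion marker EPCAM was at most 4.52 in treated and 2.79 in DMSO libraries. Of 72 treated and DMSO libraries, 16 correlated best with a library of the other arm, among them 4 of R1 and 6 of R8. The library labelled R1 at time point 3 was nearest to DMSO R9 at time point 2 (r = 0.848, against 0.584 for its best treated match), and the library labelled R8 at time point 1 was nearest to treated R6 at time point 1 (r = 0.827, against 0.585 for its best DMSO match). Results are therefore also given without these 2 libraries or without lineages R1 and R8, a choice made after the data were seen. Likeness to the other arm set this choice, so leaving them out favours a larger difference between arms. Samples are called by their labels throughout.

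Promoter sequence shows which members carry a p53 site near the start of transcription, the feature that makes MDM2 a feedback gene. The windows run from 250 bases before to 50 bases after a RefSeq start (GRCh38.p14, plus strand). Each was searched on both strands for the 20-base p53 response element consensus, with up to 3 mismatches, for TGACGTCA, the element bound by CREB-family factors, and for GGGCGG, the core of the GC box. Capitals mark the matches.
MDM2, internal promoter, chr12:68808767-68809066: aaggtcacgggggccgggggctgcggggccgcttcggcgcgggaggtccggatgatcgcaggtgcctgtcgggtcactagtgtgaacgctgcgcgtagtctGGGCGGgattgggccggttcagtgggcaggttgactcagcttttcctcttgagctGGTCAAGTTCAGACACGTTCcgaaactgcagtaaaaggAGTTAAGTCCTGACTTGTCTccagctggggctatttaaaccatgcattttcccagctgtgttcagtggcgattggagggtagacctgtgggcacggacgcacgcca
CDKN1A, chr6:36678464-36678763: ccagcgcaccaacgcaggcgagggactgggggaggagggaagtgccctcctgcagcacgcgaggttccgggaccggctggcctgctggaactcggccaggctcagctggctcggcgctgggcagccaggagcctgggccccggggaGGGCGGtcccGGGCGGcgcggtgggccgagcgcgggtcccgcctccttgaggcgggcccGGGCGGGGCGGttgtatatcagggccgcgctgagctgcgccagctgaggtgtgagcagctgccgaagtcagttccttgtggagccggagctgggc
PPM1D, chr17:60599943-60600242: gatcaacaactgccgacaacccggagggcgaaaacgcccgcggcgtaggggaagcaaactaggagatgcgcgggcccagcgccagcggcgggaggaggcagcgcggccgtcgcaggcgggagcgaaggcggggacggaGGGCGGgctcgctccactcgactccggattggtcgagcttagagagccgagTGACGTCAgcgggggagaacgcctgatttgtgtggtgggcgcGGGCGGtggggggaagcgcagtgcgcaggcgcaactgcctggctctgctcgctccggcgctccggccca

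The MDM2 window lies inside the annotated gene (chromosome 12 from 68808176 to 68850686, GENCODE v29). It holds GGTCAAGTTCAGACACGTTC at bases 157 to 176, with 2 mismatches to the consensus, and AGTTAAGTCCTGACTTGTCT at bases 195 to 214, with 3. Of 35116 such windows, 1826 (5.20%) hold a match of this kind. The windows at the upstream start of MDM2 and those of CDKN1A, PPM1D, CCNG1 and MDM4 hold none, which says only that these letters are not in those 300 bases. The CDKN1A window (gene on chromosome 6 from 36676460 to 36687339) holds 4 GGGCGG, of which 2 share a base, and 45.0% of windows hold at least 1. The PPM1D window (gene on chromosome 17 from 60600183 to 60666280) holds TGACGTCA at bases 190 to 197, as do 1.85% of windows. CCNG1 lies on chromosome 5 from 163437569 to 163446151 and MDM4 on chromosome 1 from 204516379 to 204558120. All 5 genes are protein coding and on the plus strand.

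CDKN1A was by far the most variable of the 5 genes, and the others stayed within a narrow range. In these bulk samples, fewer cells with a transcript and less of it per cell cannot be told apart. Its values ran from 50.8 to 4992 (median 858) in 49 treated libraries and from 53.01 to 10116 (median 935) in 23 DMSO libraries, and the parental library had 880. These are ranges of 98.3-fold in treated and 191-fold in DMSO libraries. The SD of its log2 values was 1.20 in treated libraries, which 3.80% of genes exceeded, and 2.21 in DMSO libraries, which 0.920% exceeded. MDM2 ran from 1699 to 5658 (median 2168) in treated and from 1730 to 4120 (median 2212) in DMSO libraries, with 2228 in the parental library. PPM1D ran from 336 to 739 (median 509) in treated and from 350 to 839 (median 501) in DMSO libraries, with 478 in the parental library. For CCNG1 the values were 1448 to 2805 (median 2054) in treated, 1413 to 3317 (median 2124) in DMSO libraries and 2544 in the parental library. For MDM4 they were 2011 to 4485 (median 2890) in treated, 2342 to 4275 (median 3414) in DMSO libraries and 2818 in the parental library. The log2 SD of these 4 genes lay between 0.19 and 0.32 in either arm, close to or below the median of all genes (0.30 in treated, 0.34 in DMSO libraries).

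**Figure D1:**
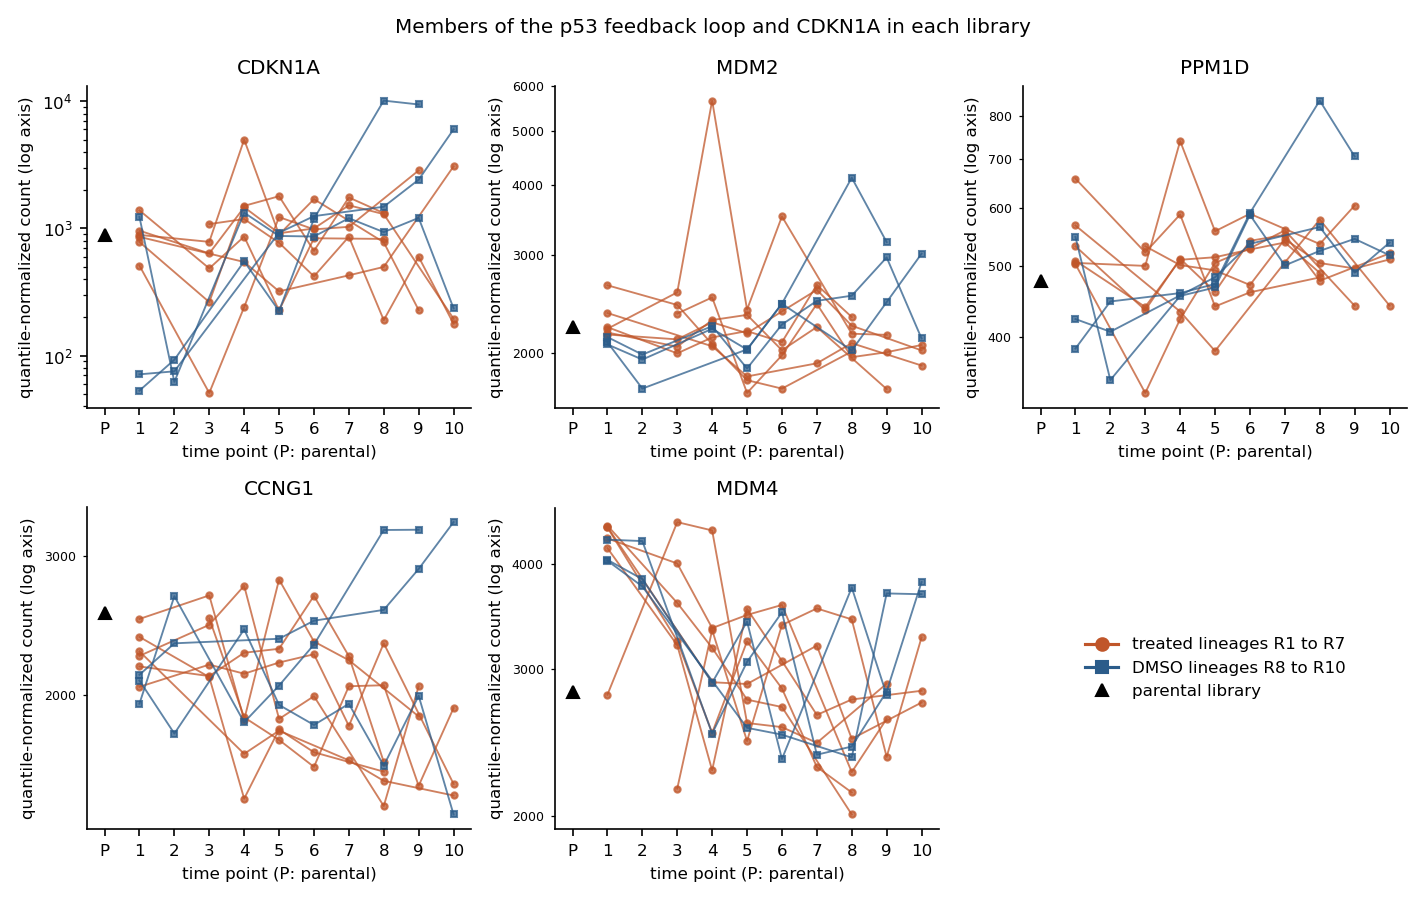
Quantile-normalized count of each gene (log axis) against time point, 1 line per lineage: treated lineages in orange circles, DMSO lineages in blue squares, and the parental library as a black triangle at P. CDKN1A spans 50.8 to 4992 in treated and 53.01 to 10116 in DMSO libraries, whereas each of the other 4 genes spans less than 4-fold within an arm.

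In treated lineages, CDKN1A kept no common course. At time point 1 the 6 treated libraries ran from 510 to 1387 (median 874), near the parental value. At time point 3 they ran from 50.8 to 1082 (median 560), the lowest being the library labelled R1, and at time point 4 the 7 libraries ran from 241 to 4992 (median 1185), the highest being R4. At time points 5, 6, 7 and 8 the medians were 893, 909, 1029 and 802. At time point 9 the 3 treated libraries had 2857 in R1, 228 in R4 and 597 in R5, and at time point 10 they had 3076 in R2, 178 in R5 and 195 in R6. The late treated libraries therefore fell on both sides of the parental value of 880.

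In DMSO lineages, CDKN1A was low at the outset and high at the end in R9 and R10 but not in R8. R9 had 53.01 at time point 1, 92.7 at 2, 551 at 4, 224 at 5, 1190 at 6, 10116 at 8 and 9436 at 9. R10 had 71.2 at time point 1, 75.2 at 2, 925 at 5, 1249 at 6, 1481 at 8, 2416 at 9 and 6010 at 10. R8 had 1229 at time point 1, 62.1 at 2, 1328 at 4, 872 at 5, 863 at 6, 1203 at 7, 935 at 8, 1209 at 9 and 235 at 10. Between its first and last libraries the value of R9 thus differed 178-fold and that of R10 84.5-fold, while R8 ended at 0.192 of its start.

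The change per time point was fitted within each lineage on log2(value + 1), and the 7 treated and 3 DMSO slopes were tested with limma (Benjamini-Hochberg over all genes, threshold 0.05). No member rose past the threshold in either arm, and MDM4 and CCNG1 fell past it in treated lineages, 2 of 5 members against 39.4% of all genes called and 23.8% called as falling. In DMSO lineages 0 of 5 members passed, against 9.87% of all genes, although CDKN1A, MDM2 and PPM1D had positive slopes in all 3. In R8 these positive slopes were not a rise from the first to the last library. There the last value was 0.192 of the first for CDKN1A, 0.994 for MDM2 and 0.944 for PPM1D. The lowest CDKN1A value of R8, 62.1, was at time point 2, which treated lineages lack. For CDKN1A the mean slope was 0.010 ± 0.11 log2 per time point in treated lineages (SE, adjusted p = 0.948) and 0.58 ± 0.17 in DMSO lineages (SE, adjusted p = 0.0527). The single slopes were -0.33 to 0.49 in treated lineages, 3 positive and 4 negative, and 0.069 in R8, 0.98 in R9 and 0.69 in R10. The lowest DMSO slope, that of R8, lay inside the treated range. Without R8, CDKN1A (0.84, adjusted p = 0.0143), MDM2 and CCNG1 passed in DMSO lineages, 3 of 5 against 17.4% of genes. With a limma fit on libraries and the lineage as a replicate block, CDKN1A, MDM2 and PPM1D passed, 3 of 5 against 39.9% of genes. That fit takes repeated libraries of a lineage as replicates, so its p-values leave out the spread of slopes between lineages. Without the library labelled R8 at time point 1, and that labelled R1 at time point 3 in the other arm, CDKN1A (0.62, adjusted p = 0.0327) and PPM1D (0.078, adjusted p = 0.0422) passed, 2 of 5 against 8.84% of genes.

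MDM2, the ubiquitin ligase of the loop, varied with CDKN1A in part, and over a far narrower range. In treated lineages the 6 libraries at time point 1 ran from 2161 to 2646 (median 2220). R4 stood apart from the other treated lineages, with 5658 at time point 4 and 3512 at time point 6. The 3 treated libraries at time point 10 had 1902 in R2, 2070 in R5 and 2024 in R6. In R1 at time point 9, MDM2 was 1726 with CDKN1A at 2857. In R2 at time point 10 CDKN1A was 3076, and both MDM2 values lay below the treated median of 2168. In DMSO lineages R9 had 2074 at time point 1, 1949 at 2, 2212 at 4, 2031 at 5, 2454 at 6, 4120 at 8 and 3161 at 9. R10 had 2093, 1730, 2032, 2452, 2024, 2469 and 3013 at time points 1, 2, 5, 6, 8, 9 and 10. R8 reached 2967 at time point 9 and stood at 2126 at time point 10, close to its 2138 at time point 1. Mean slopes were -0.023 ± 0.013 log2 per time point in treated lineages (SE, adjusted p = 0.182, negative in 5 of 7) and 0.068 ± 0.020 in DMSO lineages (SE, adjusted p = 0.0549, positive in 3 of 3, limma with Benjamini-Hochberg).

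PPM1D, the phosphatase gene, followed CDKN1A at some of its extremes but not throughout. Its highest treated value was 739 in R4 at time point 4, and its highest DMSO values were 839 in R9 at time point 8 and 705 in R9 at time point 9, where CDKN1A was highest too. With CDKN1A at 6010 in R10 at time point 10, PPM1D was 538, beside a DMSO median of 501. In R4 at time point 9, however, PPM1D was 604 with CDKN1A at 228, and it was 442 both in R1 at time point 9, with CDKN1A at 2857, and at time point 10 in R2, with CDKN1A at 3076, below the treated median of 509. Its lowest were 336 in the library labelled R1 at time point 3 and 350 in R8 at time point 2, 2 of the libraries with CDKN1A under 100. Mean slopes were -0.0025 ± 0.014 log2 per time point in treated lineages (SE, adjusted p = 0.901, 4 positive and 3 negative) and 0.067 ± 0.022 in DMSO lineages (SE, adjusted p = 0.0691, 3 of 3 positive).

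CCNG1, which encodes cyclin G1, fell in treated lineages. Its slope was negative in all 7, between -0.078 in R3 and -0.023 in R7, with a mean of -0.049 ± 0.014 log2 per time point (SE, adjusted p = 0.0173, limma with Benjamini-Hochberg); 14.7% of all genes had a negative slope in all 7. The 6 treated libraries at time point 1 ran from 2051 to 2500 (median 2259), and the 3 at time point 10 had 1493 in R2, 1927 in R5 and 1544 in R6. DMSO lineages divided: R9 ended at 3244 and R10 at 3317, above all treated libraries, and R8 at 1413, below them all. Their slopes were 0.079 in R9, 0.057 in R10 and -0.040 in R8, with a mean of 0.032 ± 0.021 (SE, adjusted p = 0.289). The call in treated lineages was lost without time point 1 (adjusted p = 0.0637) and without R3 (adjusted p = 0.0524).

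MDM4, the partner of MDM2 that blocks the activation domain of p53, was high at the start in both arms. At time point 1, 5 of the 6 treated libraries had 4176 to 4442 and R1 had 2793, while the DMSO libraries had 4275 in R8, 4044 in R9 and 4034 in R10. The parental library, with 2818, lay far below these 8 libraries. At time point 8 the 6 treated libraries ran from 2011 to 3434 (median 2367), and the DMSO libraries had 2423 in R8, 3748 in R9 and 2352 in R10. MDM4 fell in treated lineages by 0.077 ± 0.020 log2 per time point (SE, adjusted p = 0.0130, limma with Benjamini-Hochberg), with negative slopes in 6 of 7, R5 being the exception at 0.038. R5 has no library at time point 1, and the highest treated value, 4485, was that of the library labelled R1 at time point 3. In DMSO lineages the mean slope was -0.041 ± 0.030 (SE, adjusted p = 0.346), negative in 3 of 3. Without time point 1 the treated fall did not pass (adjusted p = 0.0761).

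**Figure D2:**
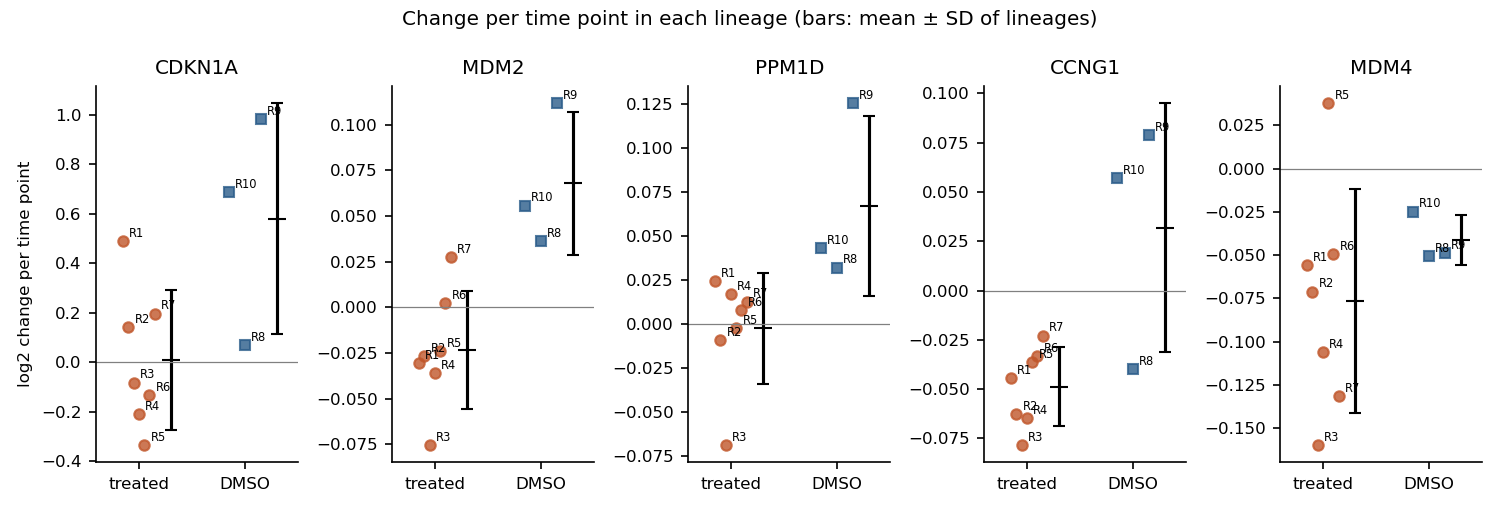
Log2 change per time point in each lineage, treated lineages (orange circles) left and DMSO lineages (blue squares) right in each panel, with the mean ± SD of lineages in black. For MDM2 and PPM1D all 7 treated slopes lie below all 3 DMSO slopes, and for CCNG1 all 7 treated slopes are negative. Only DMSO lineages have libraries at time point 2.

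Whether treated and DMSO lineages changed differently was tested on the difference of their mean slopes. It was negative for all 5 genes, but no gene of the table passed with limma and Benjamini-Hochberg (0 of 14565, 0%, smallest adjusted p = 0.476, with 1332 at an unadjusted p under 0.05). MDM2 differed by -0.091 ± 0.024 log2 per time point (SE, adjusted p = 0.487) and ranked 65 of 14565 by p. The differences were -0.57 ± 0.20 for CDKN1A (adjusted p = 0.487), -0.081 ± 0.025 for CCNG1 (0.487), -0.070 ± 0.026 for PPM1D (0.508) and -0.035 ± 0.036 for MDM4 (0.772). All but MDM4 had an unadjusted p under 0.05 with a negative sign, as 5.0% of all genes did. For MDM2 and PPM1D all 7 treated slopes lay below all 3 DMSO slopes, as they did for 0.996% of all genes. The slopes of the arms rest in part on different time points. Only DMSO lineages have time point 2, where PPM1D was 350 to 448 and MDM2 1730 to 1989. The part of that time point in these slopes and in their permutation was not tested. In the exact permutation test over 120 splits of the lineages (2-sided), p was 0.00833 for MDM2 and for PPM1D, the smallest value these splits can give, 0.0333 for CCNG1, 0.0417 for CDKN1A and 0.375 for MDM4. With the lineage as a replicate block on libraries, CDKN1A (-0.53, adjusted p = 0.0151), MDM2 (-0.084, 0.0224), CCNG1 (-0.074, 0.0300) and PPM1D (-0.060, 0.0447) passed in limma, 4 of 5 against 2.2% of genes. Again these p-values leave out the spread of slopes between lineages.

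The choice of lineages weighed on this difference. R1 and R8 were picked for their likeness to the other arm, which favours a larger difference without them. Without R8, CCNG1 passed (-0.12, adjusted p = 0.0275), 1 of 5 against 1.08% of genes, and without R1 and R8, CCNG1 (-0.12, adjusted p = 0.0407) and CDKN1A (-0.91, adjusted p = 0.0261) passed, 2 of 5 against 1.24% of genes. In DMSO slopes alone, 3 of 5 members passed without R1 and R8, against 18.3% of genes (limma, Benjamini-Hochberg). Without 6 late libraries (R1 at time point 9, R2 and R10 at 10, R9 at 8 and 9, R10 at 9) no member passed in the difference.

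Over all time points, with each lineage reduced to 1 level adjusted for time point, the 5 genes were slightly lower in treated lineages and none was called. CCNG1 differed by -0.21 ± 0.098 log2 (SE, adjusted p = 0.377), CDKN1A by -0.26 ± 0.21 (0.599), MDM2 by -0.13 ± 0.087 (0.506), MDM4 by -0.036 ± 0.039 (0.698) and PPM1D by -0.030 ± 0.064 (0.859). With limma and Benjamini-Hochberg 0 of 14565 genes passed (0%), while 1968 had an unadjusted p under 0.05. Without R8, CCNG1 passed (-0.33, adjusted p = 0.0400), 1 of 5 against 9.32% of genes, and without R1 and R8 it was again the 1 member called (-0.36, adjusted p = 0.0122), against 17.4% of genes. Without the 6 late libraries CDKN1A, MDM4 and PPM1D turned positive, at 0.35, 0.058 and 0.044.

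Single time points gave the arms' difference its course. CDKN1A was higher in treated than in DMSO libraries at time point 1 and lower at time points 8 to 10, and none of 40 pairs of member and time point passed (limma, Benjamini-Hochberg). At time point 1 the 6 treated libraries had 510 to 1387, against 53.01 in R9, 71.2 in R10 and 1229 in R8, a difference of 2.35 ± 0.92 log2 (SE, adjusted p = 1.00, unadjusted p = 0.0132). With the library labelled R8 at time point 1 and the one labelled R1 at time point 3 left out, it was 3.79 ± 0.95 (adjusted p = 0.0751), and without lineages R1 and R8 it was 3.94 ± 0.85 and passed (adjusted p = 0.0225), as did 0.391% of all genes. PPM1D lay 0.28 ± 0.14 log2 higher at time point 1 (SE, unadjusted p = 0.0445).

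At time point 8 the difference was -1.81 ± 0.92 log2 for CDKN1A (SE), -0.38 ± 0.18 for MDM2, -0.30 ± 0.14 for PPM1D, -0.45 ± 0.19 for CCNG1 and -0.17 ± 0.18 for MDM4, with adjusted p between 0.430 and 0.769. At time point 9 it was -2.05 ± 1.06 for CDKN1A (SE, adjusted p = 0.362), -0.54 ± 0.21 for MDM2 (0.178) and -0.55 ± 0.22 for CCNG1 (0.191). Background calls were 194 genes (1.33%) at time point 9, 9 genes (0.0618%) at time point 10 and 0 at the other 6 shared time points, where 182 to 1475 genes had an unadjusted p under 0.05 in limma. Without R8, CCNG1 passed at time points 8 (-0.72), 9 (-0.76) and 10 (-1.01), where R10 is then the lone DMSO library and is assumed to vary like the other groups. Of all genes, 3.56%, 9.1% and 5.91% passed at these time points. Without R1 and R8, CDKN1A passed too, at time points 9 (-3.69, adjusted p = 0.0154) and 10 (-3.66, adjusted p = 0.0419), and CCNG1 passed at time points 8, 9 and 10, where 7.26%, 10.9% and 9.18% of all genes did.

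**Figure D3:**
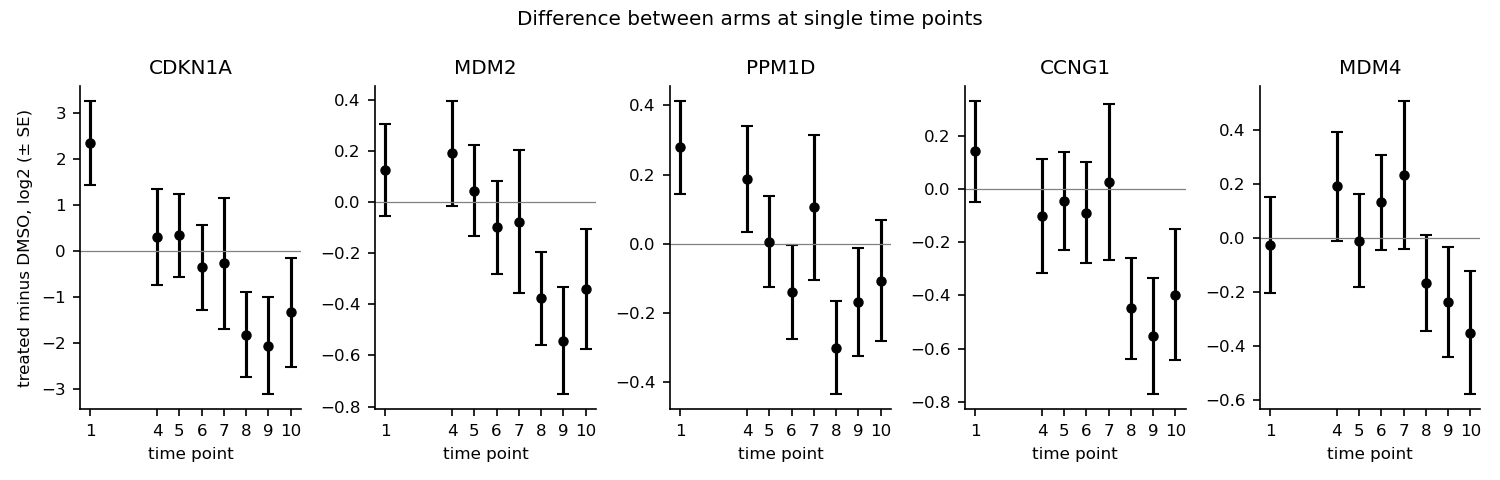
Treated minus DMSO difference of each gene in log2 units at the 8 time points that both arms share, with SE from 1 limma fit of 72 libraries. CDKN1A lies at 2.35 at time point 1 and at -1.81 and -2.05 at time points 8 and 9, and none of the 40 differences passed the threshold.

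Whether the last course mattered was asked by comparing libraries after EC with libraries after VDC in treated lineages, with lineage as a block and a linear time term. The members showed no difference past the threshold: CDKN1A was 0.21 ± 0.38 log2 higher after EC (SE, adjusted p = 0.830) and MDM2 0.11 ± 0.074 (0.489), while PPM1D (0.030), MDM4 (-0.021) and CCNG1 (-0.052) lay closer to 0. With limma and Benjamini-Hochberg 0 genes passed (0%), and 2118 had an unadjusted p under 0.05. DMSO lineages, which received neither course, gave -0.37 ± 0.58 for CDKN1A and -0.021 ± 0.098 for MDM2 between even and odd time points (SE), also with 0 genes called (558 unadjusted). The time points differ between the arms. Only DMSO lineages have time point 2, with CDKN1A between 62.1 and 92.7, and only treated lineages have time point 3. The difference of the 2 effects was 0.58 ± 0.72 for CDKN1A and 0.13 ± 0.12 for MDM2 (SE, adjusted p = 0.939 and 0.918), with 0 genes called and 685 unadjusted. The libraries of R4 carried the treated values: without R4 the effect was -0.16 for CDKN1A and -0.00050 for MDM2.

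CDKN1A reached its extremes in few libraries: 4 of 73 lay over 4000 (the next at 3076) and 6 lay under 100 (the next at 178), limits chosen after its values were seen. The 4 high libraries were R4 at time point 4, R9 at time points 8 and 9 and R10 at time point 10. In R4 at time point 4, CDKN1A (4992), MDM2 (5658) and PPM1D (739) each had the highest value of the 49 treated libraries. Of 37 p53 effector targets above the filter, 10 lay over 1 log2 unit above the treated median there (27.0%, against 1.89% of all genes). Among these, ZMAT3, a splicing regulator, had 2640 against a treated median of 874, TP53INP1, which promotes p53 phosphorylation, 3824 against 1701, and DRAM1, a lysosomal protein of autophagy, 184 against 47.4. GDF15 and PMAIP1 were not among them. The list of 20 proliferation genes had no member over 1 or under -1 in this library, and mitochondrially encoded genes made up 1.03% of its total.

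In R9 at time point 8, 17 of 37 effector targets lay over 1 log2 unit above the DMSO median (45.9%, against 6.74% of all genes). They included GDF15, a secreted stress cytokine, with 787 against 3.36, PMAIP1, the BH3-only protein NOXA, with 479 against 15.6, and FAS, the death receptor, with 1707 against 261. In R10 at time point 10, 13 of 37 did so (35.1%, against 6.15%), with GDF15 at 362, PMAIP1 at 322 and FAS at 1834. Of the 10 targets over 1 in R4 at time point 4, 7 were over 1 in R9 at time point 8 as well (70% of the 10 and 41.2% of the 17), and 6 in R10 at time point 10 (60% of the 10 and 46.2% of the 13). Both DMSO libraries shared ZMAT3, with 2391 in R9 at time point 8 and 2839 in R10 at time point 10, and DRAM1, with 630 in that library of R9 and 358 in that of R10. MDM2 had 4120 in R9 at time point 8 and 3013 in R10 at time point 10, the highest and the third highest DMSO values. Thus MDM2 was 1.38 log2 units above its arm's median in R4 at time point 4, where CDKN1A was 2.54 above, and 0.90 above in R9 at time point 8, where CDKN1A was 3.43 above. Mitochondrially encoded genes made up 0.689% of the total in R9 at time point 8, 0.443% at time point 9 and 0.490% in R10 at time point 10.

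**Figure D4:**
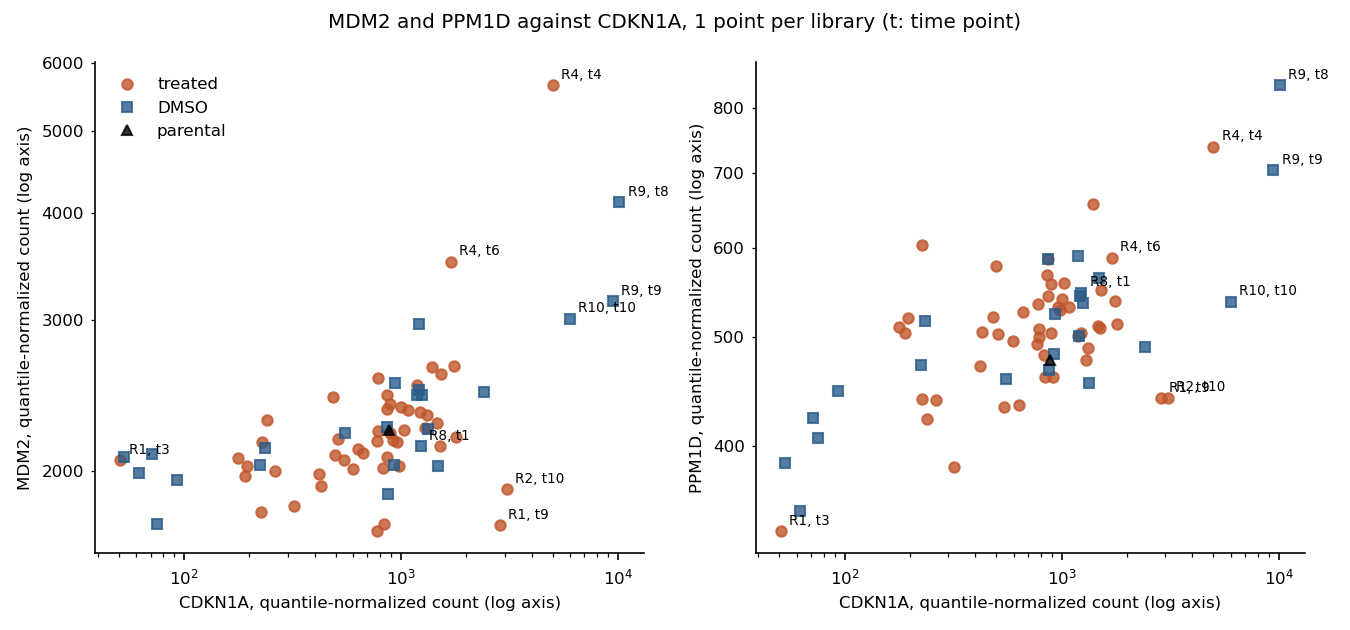
MDM2 (left) and PPM1D (right) against CDKN1A in each library, both axes logarithmic quantile-normalized counts, with treated libraries in orange circles, DMSO libraries in blue squares and the parental library in black. R4 at time point 4 has the highest MDM2 (5658) and R9 at time point 8 the highest CDKN1A (10116) and PPM1D (839).

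The 6 low libraries were the treated library labelled R1 at time point 3 and, with DMSO, R9 and R10 at time point 1 and R8, R9 and R10 at time point 2, with CDKN1A between 50.8 and 92.7. All 6 held more mitochondrially encoded RNA than the arm medians of 117456 in treated and 119723 in DMSO libraries: the summed value of the 13 genes was 486847 in R1 at time point 3 and 189513 to 378999 in the 5 DMSO libraries. The library labelled R8 at time point 1 also had a high sum, 297050, but a CDKN1A of 1229. So did treated R2, R3, R4, R6 and R7 at time point 1, with sums of 245499 to 278414 and CDKN1A between 782 and 1387. The effector targets were low with CDKN1A: 11 of 37 lay under -1 log2 unit from the arm's median in R1 at time point 3, against 8.94% of all genes, and 6 to 10 of 37 in the DMSO libraries, against 4.81% to 7.46% of all genes. The proliferation list was low in all 6, with at most 2 of 20 genes above the arm's median, and most so in R1 at time point 3 (median -1.37, 14 of 20 under -1) and R9 at time point 2 (median -1.18, 15 of 20 under -1, against 7.46% of all genes). In R9 and R10 at time point 1 and R8 and R10 at time point 2 its medians were -0.55, -0.50, -0.52 and -0.18, with 1 of 20 under -1 in each. MKI67, the proliferation antigen, had 2820 in R1 at time point 3 and 1780 in R9 at time point 2, the lowest of each arm. MDM2 lay below its arm's median in all 6, at 2055 in the library labelled R1 at time point 3 (treated median 2168) and at 1730 to 2093 in the DMSO libraries (median 2212), and 1730, in R10 at time point 2, was the lowest DMSO value. Over 72 libraries the log2 value of CDKN1A correlated with the mitochondrial sum at r = -0.51 (-0.31 in 49 treated and -0.73 in 23 DMSO libraries), and that of MDM4 at r = 0.59 (0.64 in treated and 0.52 in DMSO libraries); the part of RNA quality in these levels was not tested.

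Across the 72 treated and DMSO libraries CDKN1A, MDM2 and PPM1D were correlated with one another, CCNG1 more loosely with them and MDM4 hardly or inversely. CDKN1A correlated with PPM1D at r = 0.67, with MDM2 at 0.57, with CCNG1 at 0.32 and with MDM4 at -0.30, and MDM2 with PPM1D at 0.68. CCNG1 correlated with MDM2 at 0.46 and with PPM1D at 0.27. In the 23 DMSO libraries its r was 0.56 with CDKN1A, 0.49 with MDM2 and 0.45 with PPM1D. In treated libraries it was 0.12 with CDKN1A and 0.30 with MDM4. Without the 6 late libraries it was 0.15 with CDKN1A and 0.070 with PPM1D. For CDKN1A and PPM1D r was 0.48 in the 49 treated libraries and 0.84 in the 23 DMSO libraries, and for CDKN1A and MDM2 it was 0.45 in treated and 0.77 in DMSO libraries. These are descriptions over libraries that share lineages and unknown depth.

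The 5 genes whose log2 values were most like CDKN1A over 72 libraries were DRAM1 (r = 0.95), TNFRSF10D (0.93), AEN (0.85), IL4R (0.83) and PHLDA3 (0.83). TNFRSF10D encodes a decoy receptor for the death ligand TRAIL, AEN a nuclease, and PHLDA3 an inhibitor of AKT. DRAM1 ran from 3.22 to 680 and TNFRSF10D from 24.1 to 685. For MDM2 the most like genes were FDXR (0.71), a mitochondrial reductase, PPM1D (0.68), DNAI3 (0.60), DRAM1 (0.60) and TIGAR (0.59). For PPM1D they were FDXR (0.69), MDM2 (0.68), CDKN1A (0.67), DRAM1 (0.63) and TNFRSF10D (0.62). For CCNG1 they were PAQR5 (0.73), BAX (0.69), the pore-forming effector of apoptosis, CERT1 (0.69), ZMAT3 (0.68) and EGFL7 (0.68). MDM4 had none of these neighbours: its most like genes were PHYKPL (0.89), CCDC14 (0.89), DMTF1 (0.89), TARBP1 (0.89) and SSPOP (0.88).

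The wider p53 pathway was read from lists of its regulators and targets. Of 18 kept regulators of p53, 1 rose and 5 fell in treated lineages (limma with Benjamini-Hochberg), beside 15.6% and 23.8% of all genes. The 1 was RPL11 (0.070), a ribosomal protein that binds MDM2, and among the 5 were RCHY1 (-0.060) and UBE4B (-0.038), ubiquitin ligases for p53, and PRKDC (-0.044), the DNA damage kinase DNA-PKcs. In DMSO lineages TP53BP1 (-0.051), a break repair scaffold, fell and no regulator rose, beside 5.31% and 4.55% of all genes. Medians of the list were -0.015 in treated and -0.021 in DMSO lineages, beside -0.0076 and -0.0091 over all genes. In the difference between arms the 2 smallest p-values belonged to the checkpoint kinases CHEK2 (-0.070) and CHEK1 (-0.053), neither past the threshold.

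Of 37 kept p53 effector targets, 6 rose and 11 fell in treated lineages, while 7 rose and 0 fell in DMSO lineages. Of all genes, 15.6% rose and 23.8% fell in treated lineages, and 4.55% rose and 5.31% fell in DMSO lineages. Risers in treated lineages included PMAIP1 (0.50 log2 per time point), the kinase gene PLK2 (0.31), GDF15 (0.30) and FAS (0.19), and those in DMSO lineages GDF15 (0.74), PLK2 (0.70), PMAIP1 (0.69) and DRAM1 (0.51). The fallers in treated lineages, outside the naming rule and named after their values were seen, included the antiviral gene TRIM22 (-0.18), ZMAT3 (-0.16), the stress sensor SESN1 (-0.13), the repair gene DDB2 (-0.12) and BAX (-0.094). Median slopes of the list were -0.040 in treated and 0.093 in DMSO lineages, beside -0.0076 and -0.0091 over all genes. The difference between arms was negative for 35 of 37 (median -0.13, against 0.0013 over all genes), and none passed; SESN1 (-0.14) and FBXO22 (-0.074), a ubiquitin ligase subunit, had the smallest p-values. In this difference 12 of 37 passed as lower with the replicate block (2.2% of all genes called) and without R1 and R8 (1.24%), and 4 without R8 (1.08%). The limits of these fits given for the members hold here too. The count of 7 in DMSO lineages was 20 with the block, 18 without R8, and 0 without R9, R10 or time point 1, and no effector target fell there in any of these fits. Without time point 1 the counts in treated lineages were 0 rising and 2 falling.

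**Figure D5:**
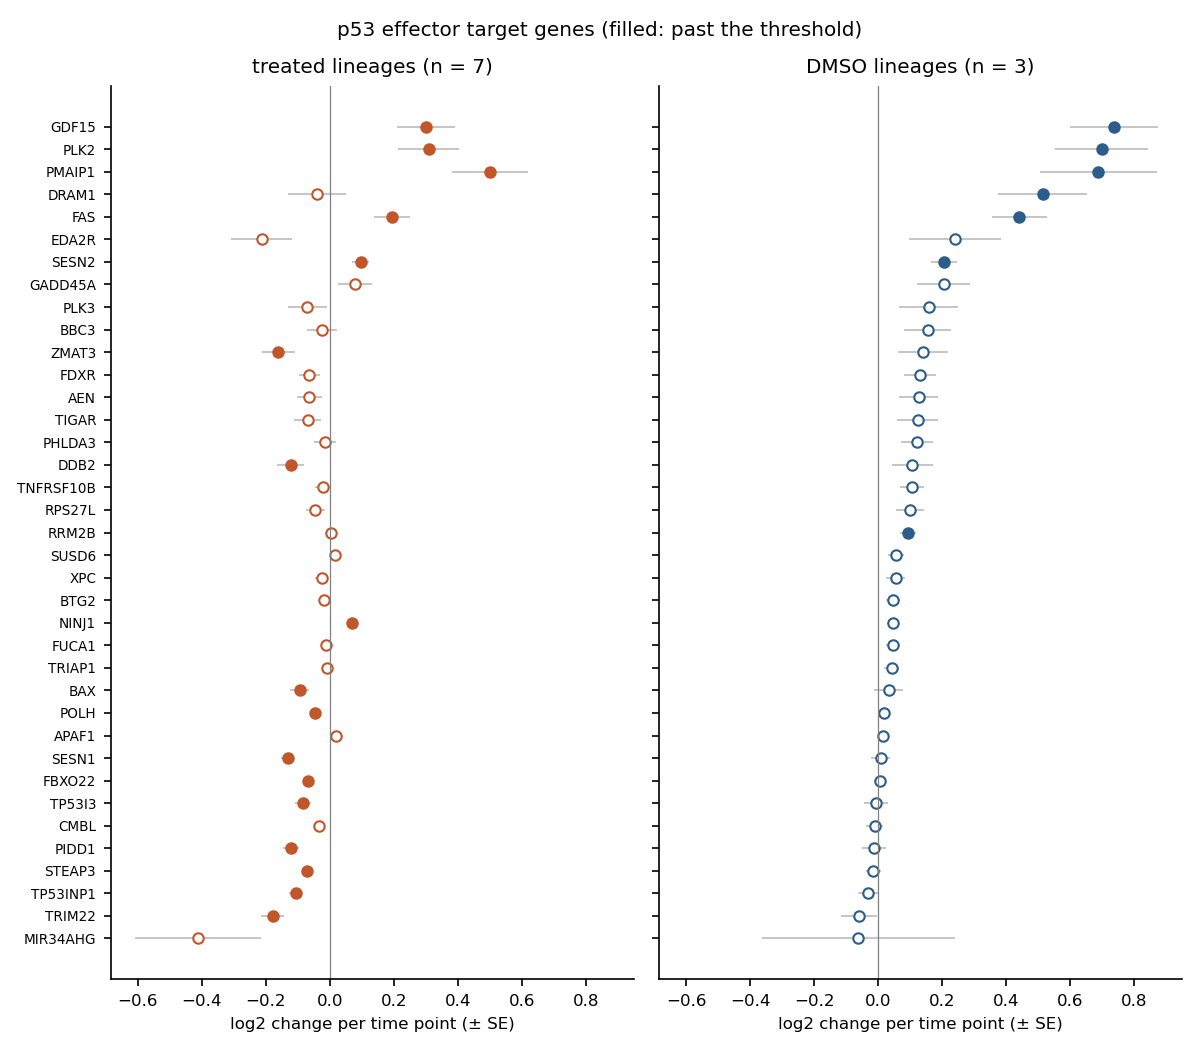
Mean log2 change per time point ± SE for 37 p53 effector target genes in treated lineages (left, n = 7) and DMSO lineages (right, n = 3), ordered by the DMSO value and on the same scale; filled points passed the threshold. In treated lineages 6 genes rose and 11 fell, and in DMSO lineages 7 rose and 0 fell.

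Downstream of p21 few genes passed the threshold. Of all genes, 15.6% rose and 23.8% fell in treated lineages, and 4.55% rose and 5.31% fell in DMSO lineages. Of 19 kept G1 kinases, cyclins and inhibitors, CDK6, a kinase that drives G1, rose in both arms (0.38 log2 per time point in treated and 0.48 in DMSO lineages), and RBL2, an RB family repressor, fell in treated lineages (-0.035). None of 20 proliferation genes passed in treated lineages, where TOP2A had -0.021, MKI67 -0.027 and, with the smallest p-values, BIRC5 0.049 and CDC20 0.042. In DMSO lineages AURKA, a mitotic kinase, rose (0.16), and TOP2A (0.058) and MKI67 (0.061) did not pass. There 18 of 20 slopes were positive (median 0.066, against -0.0091 over all genes). The difference in slopes between arms was negative for 19 of 20 (median -0.059, against 0.0013 over all genes), and none passed. CDKN1A and MKI67 correlated positively over 72 libraries (r = 0.50). The 13 genes of the mitochondrial genome, followed as a measure of RNA quality, all fell in both arms, with medians of -0.14 in treated and -0.22 in DMSO lineages, and their part in the other slopes was not tested. Of 9 Ewing sarcoma markers above the filter, 4 fell past the threshold in treated and 2 in DMSO lineages, and none rose. Markers of other cell types moved too. Of 5 fibroblast and muscle markers above the filter, 3 rose in treated lineages, COL1A1 (0.39), DES (0.22) and COL3A1 (0.12), and none in DMSO lineages, and the sum of the list ran from 5585 to 47824 in treated and from 3307 to 16527 in DMSO libraries. The 3 epithelial markers above the filter, KRT8, KRT18 and ESRP1, rose in treated lineages and ESRP1 rose in DMSO lineages, while KRT19 and CDH1 stayed at most 8.96 in any treated or DMSO library. The sum of the 6 epithelial markers was 15.05 to 763 in treated and 15.9 to 1461 in DMSO libraries. Blood cell markers summed to 68.8 to 247 in treated and 61.8 to 1067 in DMSO libraries, with CD3E at most 2.06 and CD79A the 1 gene above the filter. The part of these markers in the members' values was not tested.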

How the data were processed

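Per the labels' protocols, extraction used a Qiagen AllPrep kit, and STAR aligned and counted the reads. The submitters' processing notes name STAR, featureCounts and GRCh38. The deposited values are a signal, quantile-normalized counts of 36233 genes in 73 columns, with totals of 13583520 in treated and 13582508 in DMSO and parental columns. Depth is therefore unknown and no counting interval is given. How the normalization was done is not given in the sources used here.

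The analysis took log2(value + 1), a pseudocount of 1, for 14565 genes with a mean of at least 10, with limma 3.58.1 (variance trend) in R 4.3.3, Benjamini-Hochberg over these genes and a threshold of 0.05. Lineages were the replicates (7 treated, 3 DMSO) for levels adjusted for time point and for least squares slopes. They come from 1 cell line, so p-values of these fits measure the spread between cultures. Single time points used 1 fit of 72 libraries, and EC against VDC had lineage as a block. In both, and in fits with the lineage as a replicate block, p-values measure the scatter of libraries, with several libraries per lineage. Replicate numbers were taken, by the labels, to mark 1 culture over time. Deviations of libraries from their group means were hardly alike within a lineage. Their mean r was 0.0814 for 219 pairs from 1 lineage and -0.0152 for 1050 other pairs.

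Members and lists were chosen with earlier results of these data known. Named were the members, MKI67, TOP2A, up to 4 called genes per list (else the 2 smallest p-values) and 5 like genes per member. Like genes were ranked by Pearson r. The functions were tested on simulated data. Alternatives covered pseudocount, filter, joint normalization, trend, lineage block and left-out lineages, time points and libraries. Promoters come from RefSeq (GRCh38.p14), and gene positions from GENCODE v29. A gene that the naming rule also holds is not reported here.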

Additional observations from a re-analysis of the deposited data

Results flagged for a closer look

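Of 45 groups of 4 to 10 values, all from the treated arm, 4 held a value far from the others by Dixon's test, and chance alone gives about 1 in 20. Groups of DMSO libraries or lineages were too small for the test, so no DMSO value could be flagged. MDM2 in R4 at time point 4 was the highest of 7 treated libraries, at 12.47 (log2 of the value plus 1), and R4 also had the highest time-adjusted MDM2 level of the 7 treated lineages, at 11.42. MDM4 in R1 at time point 1 was the lowest of 6 treated libraries, at 11.45. The PPM1D slope of R3 was the lowest of 7 treated lineages, at -0.069 log2 per time point. Without R4 at time point 4 the MDM2 slope in treated lineages was -0.019 log2 per time point (limma, adjusted p = 0.269).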

How the results depend on the processing

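The treated falls of MDM4 and CCNG1 passed in the alternatives run, except without time point 1 (both lost) and without R3 (CCNG1 lost). Of the values for single genes and the effector list, 692 kept direction and side of the threshold, 36 turned sign, 27 passed newly, 3 no longer passed and 23 counts moved; every sign change was in a value outside the threshold. Causes were not tested. The number of lineages (3 with DMSO) and the unknown depth limit precision.

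Left out 1 lineage at a time, slopes in DMSO lineages called 0 to 2539 genes (highest without R8) and 0 to 3 members, and the difference in slopes 0 to 158 genes and 0 to 1 member. Slopes in treated lineages called 1 to 2 members. Levels over all time points called 0 to 1357 genes and 0 to 1 member, single time points 62 to 2705 pairs of gene and time point and 0 to 3 member pairs, and EC against VDC 0 to 164 genes (highest without R1). Ranges that crossed 0 were, for the EC minus VDC effect in treated lineages, -0.16 to 0.53 for CDKN1A, -0.00050 to 0.14 for MDM2 and -0.091 to 0.0064 for MDM4. For its difference between arms they were -0.024 to 0.98 for CDKN1A, -0.098 to 0.0092 for CCNG1, -0.066 to 0.088 for MDM4 and -0.057 to 0.067 for PPM1D. For treated slopes they were -0.070 to 0.068 for CDKN1A and -0.0070 to 0.0086 for PPM1D, and for PPM1D levels over all time points -0.057 to 0.0053. Members called in DMSO slopes differed from 0 without R8 (CDKN1A, MDM2, CCNG1), R1 or R5 (CDKN1A each).

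With the lineage as a replicate block on libraries, 5808 genes and 3 members passed in DMSO slopes, 321 genes and 4 members in the difference, and 19 genes over all time points, and the PPM1D treated slope was 0.00053. Without the block, EC against VDC called 41 genes and the MDM4 difference of effects was -0.00088. With no variance trend EC against VDC called 5 genes. A filter at a mean of at least 1 gave 785 genes in DMSO slopes. Pseudocount 10 gave 1 gene over all time points and 2 members in DMSO slopes (CDKN1A, MDM2), and a trend on mean level gave the same 2 members.

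Without the 2 libraries nearest to the other arm, 2 members passed in DMSO slopes, EC against VDC called 11 genes, the CDKN1A treated slope was -0.012, and the difference of EC effects was -0.016 for MDM4 and -0.036 for PPM1D. Without R1 and R8, genes called were 2660 in DMSO slopes, 180 in the difference, 2539 over all time points, 164 for EC against VDC and 4335 gene pairs at single time points, with 3, 2 and 1 members in DMSO slopes, the difference and levels, and 6 member pairs; the CDKN1A treated slope was -0.070 and the PPM1D difference of EC effects -0.046. Without the 6 late libraries, DMSO slopes called 2717 genes and 1 member (CDKN1A), EC against VDC 50 genes and single time points 3 pairs. Then slopes were -0.037 for CDKN1A and 0.0044 for PPM1D in treated lineages and -0.0030 for CCNG1 in DMSO lineages, the MDM4 difference was 0.019, and levels over all time points were 0.35 for CDKN1A, 0.058 for MDM4 and 0.044 for PPM1D. Without time point 1, treated slopes called 426 genes and 0 members, DMSO slopes 0 genes and single time points 54 pairs, the PPM1D treated slope was 0.017, the MDM4 EC effect 0.0080, and the differences of EC effects -0.071 for MDM4 and -0.019 for PPM1D. Without R4 at time point 4 that of PPM1D was -0.0068.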
